A study of Rattus norvegicus with 5 samples.

Results

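Sfrp2-high dermal fibroblasts are fibroblasts in which transcripts of Sfrp2, the gene for a secreted Wnt antagonist, took a large share of the cell's RNA. The cells were selected on measured values. A barcode with at least 500 unique molecular identifiers (UMIs, each standing for 1 captured transcript), at least 300 genes and at most 20% mitochondrial UMIs was kept. It was a fibroblast when Col1a1, Col3a1 and Dcn made up at least 1% of its UMIs and more than 6 keratin genes did. A fibroblast also had to hold no UMI of the leukocyte gene Ptprc. It was an Sfrp2-high fibroblast when it also had fewer than 2 UMIs of Cyp26b1, of Slc26a7 and of Edn3 with Rspo3, less than 0.1% Cxcl3 and at least 0.2% Sfrp2. This rule found 857 cells among 11442 fibroblasts (7.49%) and 43408 kept cells (1.97%). The 7948 fibroblasts that passed the same gates but held under 0.2% Sfrp2 are called other fibroblasts below.

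The cells came from 5 single-cell RNA libraries of skin from male Sprague-Dawley rats, with 1 library for each group. The groups were unirradiated control skin and skin taken 7, 14, 28 and 60 d post-irradiation. In the irradiated groups a shaved area of the buttock received an electron beam while lead shielded the rest of the animal, and control skin was another piece taken without irradiation. By the study's methods the rats were young when bought and the area received a single dose, while the number of animals behind each library is not given in the sources used here and the text of the study does not describe the 60 d library. The study's section on dissociation describes enzyme digestion and sorting to deplete debris and dead cells before droplet capture. It is worded for skin collected after eyelid surgery and does not name the rat skin. With 1 library for each group no p-value was computed, and irradiation cannot be told apart from the animal, the dissociation and the library. Intervals below are 95% exact intervals that cover counting error only.

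Dermal fibroblasts build the collagen and elastic fibre network of the skin and differ in position and in the signals they secrete. Secreted frizzled-related proteins such as Sfrp2 and Sfrp4 bind Wnt ligands outside the cell and can reduce signalling through frizzled receptors and the Lrp5 and Lrp6 co-receptors. Fibromodulin (Fmod) is a small proteoglycan that binds collagen fibrils and is abundant in tendon and other dense connective tissue, and Igfbp6 binds insulin-like growth factor 2 with preference. In human and mouse skin, fibroblasts rich in SFRP2 transcripts have been described among the cells of the reticular dermis. The study itself centred on Nr4a1, the gene for the nuclear receptor Nur77.

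The 857 cells were unevenly spread over the libraries. Control skin gave 202 of them, and the skin taken 7, 14, 28 and 60 d post-irradiation gave 521, 3, 73 and 58, so that 60.8% came from the 7 d library. As a share of all fibroblasts they made up 6.17% in control (interval 5.37 to 7.05). The shares after irradiation were 7.52% (6.91 to 8.16) in the 7 d library, 3.95% (0.822 to 11.1) in the 14 d library, 12.7% (10.1 to 15.8) in the 28 d library and 9.85% (7.56 to 12.5) in the 60 d library. The interval of the 28 d share lay above those of control and 7 d, that of 60 d lay above control but overlapped 7 d, and the 14 d interval overlapped every other. Among fibroblasts that passed the gates on the other genes the shares were closer, at 9.91%, 9.26%, 4.76%, 14.0% and 10.5% in control, 7, 14, 28 and 60 d. Of these shares, the 28 d interval (11.1 to 17.2) overlapped that of control (8.65 to 11.3) and lay above that of 7 d (8.52 to 10.0). The 60 d interval (8.03 to 13.3) overlapped those of control and 7 d. The shares at 28 and 60 d thus lay above control by both measures, but whether the intervals overlapped depends on the fibroblasts taken as the whole. The 7 d share lay above control among all fibroblasts (7.52% against 6.17%) and below it among those that passed the gates (9.26% against 9.91%). A further 142 fibroblasts had enough Sfrp2 but failed another gate, 74 of them at 7 d and 64 in control. After every cell was thinned to 2000 UMIs and the rule applied again, the shares of fibroblasts were 6.85%, 8.57%, 4.76%, 13.3% and 10.5%. The shares also depend on how many fibroblasts were recovered, which ranged between 76 at 14 d and 6931 at 7 d. Because 14 d gave 3 cells, with 3255, 5415 and 5679 UMIs, that library enters no comparison below.

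**Figure D1:**
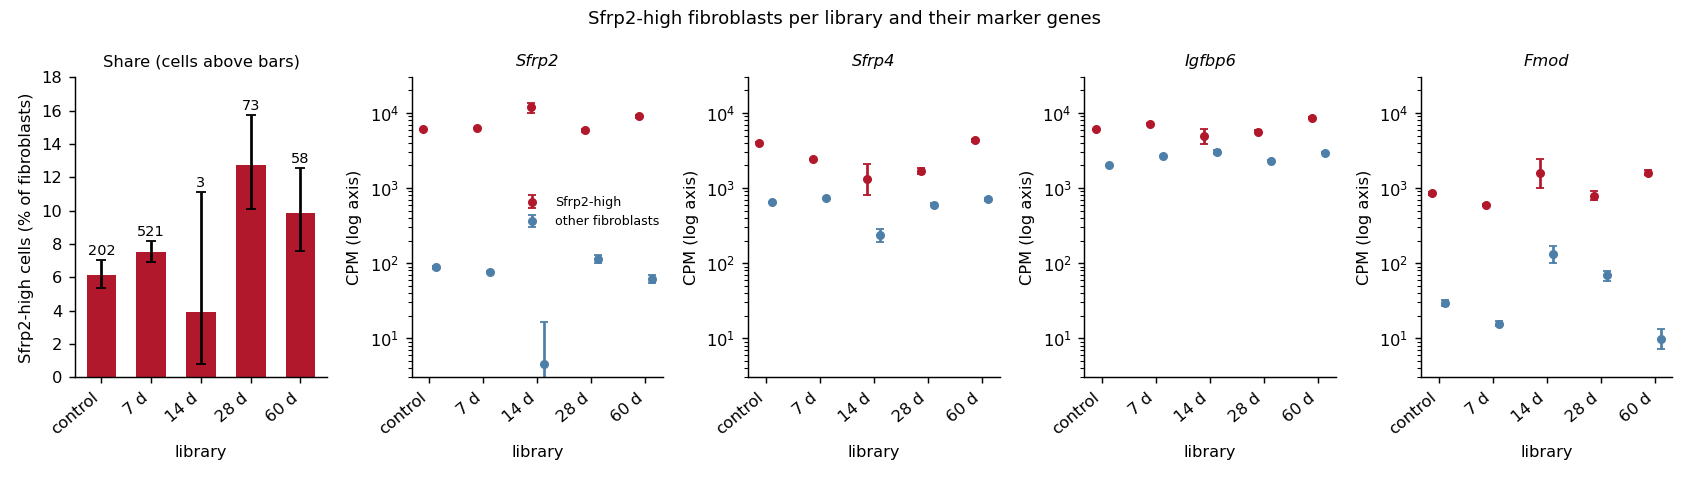
Left, Sfrp2-high cells as a percentage of fibroblasts in control, 7, 14, 28 and 60 d libraries, with 95% Clopper-Pearson intervals and the number of cells above each bar. Right, summed CPM (log axis) of Sfrp2, Sfrp4, Igfbp6 and Fmod in Sfrp2-high cells (red) and other fibroblasts (blue), with 95% Poisson intervals. The share was highest at 28 d (12.7%). Sfrp4, Igfbp6 and Fmod lay higher in Sfrp2-high cells in control and at 7, 28 and 60 d. The gap in Sfrp2 was set by the rule, and 14 d is drawn from 3 Sfrp2-high cells.

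Depth differed between libraries. The libraries held between 70073362 and 139566348 UMIs over 49507 barcodes. The Sfrp2-high cells had median UMI counts of 13446.5 in control and 11196, 3345 and 5658 at 7, 28 and 60 d, and their summed UMIs were 2699753, 5838217, 299257 and 335298. The Sfrp2-high cells at 28 and 60 d were thus the shallow ones, although the 60 d library held the most UMIs of all, and 1 UMI of a gene in them weighed about 3 CPM, the count of a gene over the summed UMIs of the cells on a common scale. Of the members' barcodes, 3 in control and 9, 2 and 1 at 7, 28 and 60 d also occurred among the kept cells of another library, and none among its Sfrp2-high cells.

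The label was checked against fibroblast markers and against markers of other cell types. Col1a1, the collagen I alpha 1 chain, had 41797 CPM in control and 27550, 20501 and 26723 CPM at 7, 28 and 60 d in Sfrp2-high cells, against 41688, 37050, 48627 and 38722 CPM in other fibroblasts. Dcn, the proteoglycan decorin, had 11711, 15345, 19114 and 24420 CPM in Sfrp2-high cells, against 10539, 13201, 13958 and 15840 CPM in other fibroblasts. The cells were therefore fibroblasts by both measures, which the rule itself required. Dpt, the gene for dermatopontin, and Lum, the proteoglycan lumican, did not enter the rule and were higher in Sfrp2-high cells in each of the 4 libraries, with log2 ratios of 0.69, 0.65, 0.81 and 1.06 for Dpt and 0.65, 0.32, 0.34 and 1.41 for Lum. Pdgfra, a receptor found on most dermal fibroblasts, was low, at 53.3, 37.7, 124 and 89.5 CPM. The 9 fibroblast markers found, rule genes among them, summed to 77913, 60227, 53356 and 66517 CPM in Sfrp2-high cells. They summed to more in other fibroblasts, at 92669, 84634, 89892 and 78609 CPM. Of 5 compared outside the rule, 1 was at least 2-fold higher and 0 lower in control, at 7 d and at 28 d.

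Markers of other cell types were low, with keratinocyte transcripts the most abundant of them. The 12 immune markers summed to 46.3 CPM in control and 35.5, 96.9 and 5.96 CPM at 7, 28 and 60 d in Sfrp2-high cells. The 9 endothelial markers summed to 66.7, 51.9, 26.7 and 26.8 CPM, the 9 mural markers to 53, 83.9, 114 and 80.5 CPM, and the 7 Schwann cell markers to 131, 149, 144 and 119 CPM. Endothelial sums were lower in other fibroblasts each time, at 11.4, 23.1, 15.6 and 8.24 CPM. Mural sums there were 78.3, 142, 225 and 76.4 CPM and Schwann cell sums 77.8, 140, 161 and 49.7 CPM, so that these went both ways. In control, the 1 endothelial and the 1 Schwann cell marker compared were higher in Sfrp2-high cells, with log2 ratios of 3.16 and 1.86. The 13 keratinocyte markers summed to 3476, 2179, 4565 and 2240 CPM and were highest at 28 d. The immune list includes Ptprc and the keratinocyte list the 6 keratin genes of the rule. The rule itself kept these genes absent or limited, so that part of both sums is no check of the label. The 5 neutrophil markers summed to 160, 437, 558 and 218 CPM and were also highest at 28 d. The part of these transcripts in the differences below was not tested.

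Sfrp2 itself had 6044, 6309, 5868 and 9019 CPM in the selected cells of control, 7, 28 and 60 d, against 87.9, 76.8, 114 and 61.6 CPM in other fibroblasts, which is the rule's own contrast. The median Sfrp2 share of a cell was 0.542% in control and 0.518%, 0.482% and 0.655% at 7, 28 and 60 d, and the highest was 3.06%. The selected cells held 62.1%, 73.2%, 76.7% and 74.9% of all Sfrp2 UMIs of their libraries. Of keratin-rich cells, in which Sfrp2 should be background, none reached 0.2% in control or at 7 d, while 2 did at 28 d and 3 at 60 d. Just inside the threshold, 82 cells with 0.2 to 0.25% Sfrp2 had 410 CPM of Fmod, 2417 of Sfrp4 and 6213 of Igfbp6. Just outside it, 89 fibroblasts with 0.15 to 0.2% had 196 CPM of Fmod, 2002 of Sfrp4 and 6529 of Igfbp6. At 28 d Fmod ran the other way, with 69.9 CPM in the 9 cells inside and 779 CPM in the 12 outside. Cells on either side of the threshold thus resembled each other in Igfbp6 and Sfrp4, and the threshold cuts through a range of Sfrp2 levels.

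The 3 other markers were high in the selected cells. Sfrp4, a further secreted Wnt antagonist, had 4018 CPM in control and 2433, 1698 and 4313 CPM at 7, 28 and 60 d, against 643, 735, 598 and 707 CPM in other fibroblasts, which gave log2 ratios of 2.64, 1.73, 1.51 and 2.61. Igfbp6 had 6071, 7178, 5631 and 8610 CPM, against 2004, 2650, 2290 and 2962 CPM, with log2 ratios of 1.60, 1.44, 1.30 and 1.54. Fmod had 851, 593, 795 and 1608 CPM, against 29.5, 15.6, 68.5 and 9.84 CPM, with log2 ratios of 4.85, 5.25, 3.54 and 7.35. Fmod therefore showed the widest gap of the 3 and Igfbp6, the most abundant, the narrowest. In the 3 cells at 14 d, Sfrp4 had 7, 0 and 12 UMIs, Igfbp6 had 23, 7 and 40 UMIs and Fmod had 11, 0 and 12 UMIs, so the same cell lacked both Sfrp4 and Fmod.

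Fmod was nevertheless seen in part of the cells only. With cells thinned to 1000 UMIs, Fmod had a UMI in 39.5%, 30.0%, 37.7% and 61.1% of Sfrp2-high cells in control, 7, 28 and 60 d (63.4%, 57.4%, 52.1% and 70.7% before thinning). In other fibroblasts thinned likewise the Fmod shares were 1.74%, 0.976%, 3.23% and 0.891%, and in keratin-rich cells, where Fmod transcripts should be free RNA, 0.223%, 0.338%, 0.321% and 0.171%. Sfrp4 had a UMI in 85.6%, 73.3%, 71.0% and 85.2% of thinned Sfrp2-high cells, against 30.0%, 34.2%, 29.6% and 29.8% of other fibroblasts and 1.21%, 2.82%, 0.192% and 0.279% of keratin-rich cells. Sfrp4 was thus found in most of the selected cells and Fmod in a smaller share.

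The genes that went with high Sfrp2 are given next as a description, because the same cells and counts chose the groups. A gene was counted as higher or lower when it had at least 50 CPM in either group, differed by at least 2-fold and had an interval without 1. A gene can pass this filter through the group in which it is high. Of 2051 genes compared in all 4 libraries with at least 50 Sfrp2-high cells, 55 (2.68%) were higher in Sfrp2-high cells than in other fibroblasts in each library, and 36 (1.76%) were lower in each. The genes named are the 15 with the highest and the 10 with the lowest median log2 ratio. The marker Fmod led the first list.

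Among the higher genes were receptors and secreted regulators. Rxfp1, the relaxin receptor, had 70.4 CPM in control and 69.2, 83.5 and 164 CPM at 7, 28 and 60 d, against 2.64, 1.85, 5.84 and 3.43 CPM in other fibroblasts, with log2 ratios of 4.74 (interval 4.29 to 5.21), 5.23 (4.88 to 5.59), 3.84 (2.86 to 4.87) and 5.58 (4.73 to 6.51). Pappa2, a protease that cleaves IGF-binding proteins, had 329, 300.3, 545 and 307 CPM, against 27.2, 16.3, 37.7 and 3.66 CPM. Dkk2, a secreted ligand of Lrp6 that modulates Wnt signalling, had 407, 474, 615 and 930.5 CPM, against 35.8, 35.3, 39.7 and 55.6 CPM, with log2 ratios of 3.51, 3.75, 3.95 and 4.06. These 3 genes were scarce in other fibroblasts and had their lowest Sfrp2-high level above the highest level there. Ccn3, a matricellular protein of the CCN family, was among the most abundant of the named genes, with 3387, 2174, 2135 and 3513 CPM, against 304, 364.5, 448.5 and 394 CPM. Sema3d, a secreted semaphorin, had log2 ratios between 2.38 and 3.10 over the 4 libraries.

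Further higher genes coded for surface proteins, enzymes and matrix. Tspan8, a tetraspanin, had 577, 623, 769 and 898 CPM in control, 7, 28 and 60 d, against 37.2, 33.3, 49.0 and 39.1 CPM in other fibroblasts. Cpxm2, a member of the carboxypeptidase X family, had 852, 957, 1063 and 1115 CPM, against 68.2, 66.6, 143 and 46.7 CPM. Col12a1, a collagen that associates with collagen I fibrils, had 2221, 1596, 2490 and 3609 CPM, against 270.4, 239, 320.2 and 182 CPM, with log2 ratios of 3.04, 2.74, 2.96 and 4.31. The levels of Tspan8 and Cpxm2 in Sfrp2-high cells stayed within a narrow range over the libraries, while Col12a1 was lowest at 7 d and highest at 60 d. Fibin differed more between libraries, at 253, 346, 561 and 1357 CPM, against 32.7, 34.7, 97.3 and 88.1 CPM. The named genes Cpm, a carboxypeptidase of the cell surface, Ptprd, a receptor tyrosine phosphatase, Rerg, a small GTPase, Cdkn1c, an inhibitor of cyclin-dependent kinases, and Cdc42ep3, an effector of Cdc42, had lowest log2 ratios of 2.04, 2.61, 2.48, 1.41 and 2.17 over the 4 libraries.

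**Figure D2:**
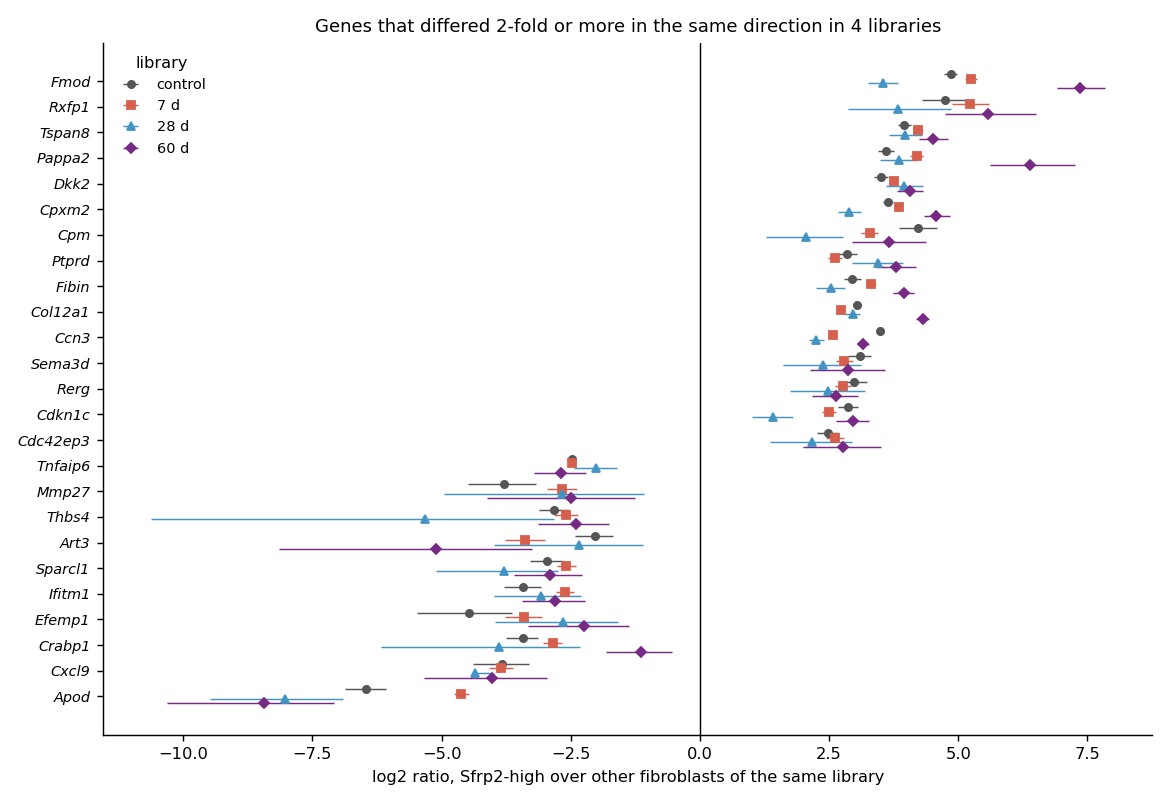
Log2 ratios of summed CPM in Sfrp2-high cells over other fibroblasts for the 15 highest and 10 lowest named genes in the control, 7 d, 28 d and 60 d libraries, with 95% counting intervals. Fmod reached 5.25 at 7 d and 7.35 at 60 d, and Apod lay lowest, at −8.43 at 60 d and −6.46 in control.

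The genes that were lower included markers of other dermal fibroblasts and chemokines. Apod, a lipocalin abundant in many dermal fibroblasts, had 19.6 CPM in control and 68.0, 20.1 and 11.9 CPM at 7, 28 and 60 d, against 1726, 1674, 5257 and 4116 CPM in other fibroblasts, with log2 ratios of −6.46, −4.62, −8.03 and −8.43. Crabp1, a retinoic acid binding protein, had 33.0, 40.4, 10.0 and 68.6 CPM, against 355, 292, 148 and 151 CPM. Tnfaip6, a secreted hyaluronan-binding protein induced in inflammation, had 655, 406, 167 and 107 CPM, against 3623, 2244, 671 and 691 CPM, with log2 ratios of −2.47, −2.47, −2.01 and −2.69. Apod was thus lower in each library by the widest margin of the named genes, and its groups did not come near each other. Cxcl9, an interferon-induced chemokine, had 11.1, 26.2, 0 and 20.9 CPM, against 158, 377, 206 and 338 CPM, and was at least 20.6-fold lower at 28 d against a floor of 3 counts per library. Efemp1, a fibulin, Ifitm1, an interferon-induced membrane protein, Sparcl1, a matricellular protein, Art3, Thbs4, a thrombospondin, and Mmp27, a metalloproteinase, had highest log2 ratios of −2.25, −2.61, −2.59, −2.04, −2.40 and −2.49. Thbs4 at 28 d rested on 1 count in Sfrp2-high cells (log2 ratio −5.32, interval −10.63 to −2.83).

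The lists below are given by their counts in each library. Of all genes compared with other fibroblasts, 4.47%, 4.53%, 8.05% and 8.1% were higher and 4.92%, 4.85%, 5.36% and 6.61% lower in control, 7, 28 and 60 d, and since the cells were chosen within this contrast nothing is read from a list's count against these shares. Of 4 Wnt antagonists compared besides Sfrp2, 3 were higher in control and 2, 2 and 3 at 7, 28 and 60 d, and none was lower. Dkk2 and Sfrp4 were counted in each library and made up the whole count at 7 and 28 d, while control and 60 d each counted a further antagonist. Sfrp1 was the antagonist whose levels were close in the groups, with log2 ratios of −0.04, −0.29, −0.19 and −0.12. Of Wnt ligands, receptors and targets, 1 of 3 was higher in control, 2 of 5 at 7 d, 4 of 7 at 28 d and 5 of 6 at 60 d, and none was lower. Lrp6, the co-receptor for Wnt ligands, had 64.5, 73.0, 144 and 194 CPM in Sfrp2-high cells, against 20.6, 22.7, 31.1 and 31.8 CPM in other fibroblasts, with log2 ratios of 1.65, 1.69, 2.21 and 2.61. Dkk2, Sfrp4 and this co-receptor were therefore higher in the same group of cells. Whether single cells held them together was not tested.

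Matrix genes went both ways. Of 6 small leucine-rich proteoglycans, 3 were higher in each library and none was lower, among them Prelp, with 1417, 1377, 1537 and 1611 CPM in Sfrp2-high cells, against 394, 465, 574 and 513 CPM in other fibroblasts. Of the collagens, 5 of 14 were higher and 4 lower in control, 4 of 12 higher and 4 lower at 7 d, 4 of 16 higher and 6 lower at 28 d, and 5 of 13 higher and 3 lower at 60 d. Col8a1, a short-chain collagen, was higher, with log2 ratios of 2.41, 2.39, 1.49 and 1.76, and Col14a1, a fibril-associated collagen, with 1.17, 1.45, 2.66 and 3.08. Col4a1, a basement membrane collagen, was lower, with log2 ratios of −2.85, −2.53, −2.20 and −1.80, and Col3a1, a rule gene, had −0.98, −1.22, −1.43 and −1.09.

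Of genes of the elastic fibre, 5 were higher and 1 lower of 18 in control, 3 and 2 of 16 at 7 d, 4 and 2 of 17 at 28 d and 7 and 1 of 17 at 60 d. Eln, the gene for elastin, had 2045, 1417, 565 and 1420 CPM in Sfrp2-high cells, against 356, 343, 277 and 117 CPM in other fibroblasts. Lox, the enzyme that crosslinks collagen and elastin, had 3458, 1984, 1510 and 1649 CPM, against 659, 553, 566 and 446 CPM. Of the matricellular genes, 7 were higher and 7 lower of 17 in control, 7 and 6 of 17 at 7 d, 3 and 5 of 16 at 28 d and 6 and 6 of 17 at 60 d. Ccn2, a CCN protein induced by TGF-beta, was among the higher, with log2 ratios of 2.02, 2.26, 1.78 and 1.54. Postn, the gene for periostin, was among the lower, with −3.00, −2.56, −2.08 and −1.54, and so was Fn1, the gene for fibronectin, with −2.07, −2.14, −1.46 and −1.41. Tnc, the gene for tenascin C, was higher in control, at 7 d and at 60 d, with log2 ratios of 4.19, 2.96 and 5.17, and lower at 28 d, with −1.18.

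Genes of the immune response went both ways. Of the inflammatory fibroblast genes, none of 19 was higher and 7 were lower in control, 2 of 18 higher and 6 lower at 7 d, 3 of 19 higher and 7 lower at 28 d, and 2 of 17 higher and 8 lower at 60 d. Of the complement genes, 2 of 10 were higher and 3 lower in control, 2 of 10 higher and 2 lower at 7 d, 6 of 11 higher and 1 lower at 28 d, and 4 of 10 higher and 1 lower at 60 d. Of genes of adventitial fibroblasts, Dpp4, a surface peptidase, was higher, with log2 ratios of 1.45, 1.82, 3.10 and 2.45. In the adventitial list 3 of 17 were higher and 6 lower in control, 3 of 18 higher and 4 lower at 7 d, 5 of 18 higher and 2 lower at 28 d, and 4 of 17 higher and 2 lower at 60 d. A further list came from the study's own account of a fibroblast cluster and was chosen on these libraries, so that it is no independent evidence. All 4 of its genes compared were higher in each library.

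Of 8 tendon and chondrocyte markers few were abundant enough to be compared, and they went both ways. In control 2 were higher and 1 lower of 3, at 7 and 28 d 1 was higher and 1 lower of 2, and at 60 d 3 were higher and 1 lower of 4, the lower one being Thbs4 each time. Their summed level was 493, 158, 80.2 and 489 CPM in Sfrp2-high cells of control, 7, 28 and 60 d, against 350.0, 192, 169 and 355 CPM in other fibroblasts. Scx, the transcription factor scleraxis of tendon progenitors, had 62.6 CPM in control and 44.2, 16.7 and 86.5 CPM at 7, 28 and 60 d, against 5.63, 2.5, 1.17 and 7.78 CPM in other fibroblasts, with log2 ratios of 3.48 (interval 3.12 to 3.83), 4.14 (3.82 to 4.48), 3.84 (1.48 to 6.53) and 3.47 (2.71 to 4.23). Tnmd, the gene for tenomodulin, a membrane protein of tendon cells, had 365, 68.5, 50.1 and 259.5 CPM, against 41.7, 10.9, 5.84 and 14.4 CPM. Scx was seen in 62 of the 202 control cells, 104 of 521 at 7 d, 4 of 73 at 28 d and 16 of 58 at 60 d, and Tnmd in 90, 90, 5 and 15 cells. Scx and Tnmd transcripts thus came from a minority of the cells, and at 28 d from a handful. Chad, the gene for the cartilage and tendon protein chondroadherin, had 80.5 CPM at 60 d against 0 in other fibroblasts there, all from 5 cells with 44.4% of the counts in 1 of them.

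The Sfrp2-high cells were not uniform, and detection of Fmod divided them. Cells were thinned to 2000 UMIs and split by whether an Fmod UMI was present, which left 91 with and 99 without in control, 190 and 277 at 7 d, 29 and 30 at 28 d, and 35 and 13 at 60 d. The 60 d group without Fmod is under 20 cells. The split is again a choice on measured values, so that the following levels are a description without a test. Scx had 132 CPM with Fmod and 15.2 CPM without in control (intervals 84.5 to 196 and 3.12 to 44.3), 86.8 and 7.22 CPM at 7 d, 34.5 and 0 CPM at 28 d and 129 and 0 CPM at 60 d. Tnmd had 374 CPM with Fmod and 126 CPM without in control, 126 and 27.1 CPM at 7 d, 69.0 and 33.3 CPM at 28 d and 371 and 0 CPM at 60 d. Scx and Tnmd therefore lay higher in the cells with Fmod in control and at 7 d, while at 28 d they rested on 2 against 0 and 4 against 2 counts, with overlapping intervals. Thbs4 did not separate the cells at 7 d, with 31.6 CPM with Fmod and 25.3 CPM without on 12 and 14 counts. In control it had 44.0 and 20.2 CPM on 8 and 4 counts, with overlapping intervals, and at 28 d it had no count in either part. At 60 d it had 257 CPM with Fmod (interval 152 to 406) and 0 CPM in the 13 cells without (0 to 142). Rxfp1 had 115 CPM with Fmod and 25.3 CPM without in control and 116 and 41.5 CPM at 7 d, and Ccn3 had 4104 and 2005 CPM in control and 3318 and 1339 CPM at 7 d.

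Cells without Fmod held more of a different set of transcripts. Myoc, the gene for the secreted glycoprotein myocilin, had 368 CPM with Fmod and 1788 CPM without in control (intervals 285 to 468 and 1606 to 1984), 682 and 1962 CPM at 7 d, 1517 and 3850 CPM at 28 d and 1071 and 3000 CPM at 60 d. Pla2g2a, a secreted phospholipase, had 478 and 1202 CPM in control, 595 and 2058 CPM at 7 d, 1431 and 2933 CPM at 28 d and 1243 and 1731 CPM at 60 d. Pi16, a marker of adventitial fibroblasts in mouse and human tissue, had 22.0 and 90.9 CPM in control, 28.9 and 181 CPM at 7 d, 34.5 and 117 CPM at 28 d and 28.6 and 154 CPM at 60 d. For Myoc, Pla2g2a and Pi16 the level without Fmod was higher in all 4 libraries. The Pi16 intervals nevertheless overlapped in control, at 28 d and at 60 d, on 4 against 18, 2 against 7 and 2 against 4 counts. Those of Pla2g2a overlapped at 60 d. Postn also lay higher without Fmod, at 93.4 CPM with and 318 CPM without in control and at 92.1 and 209 CPM at 7 d.

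**Figure D3:**
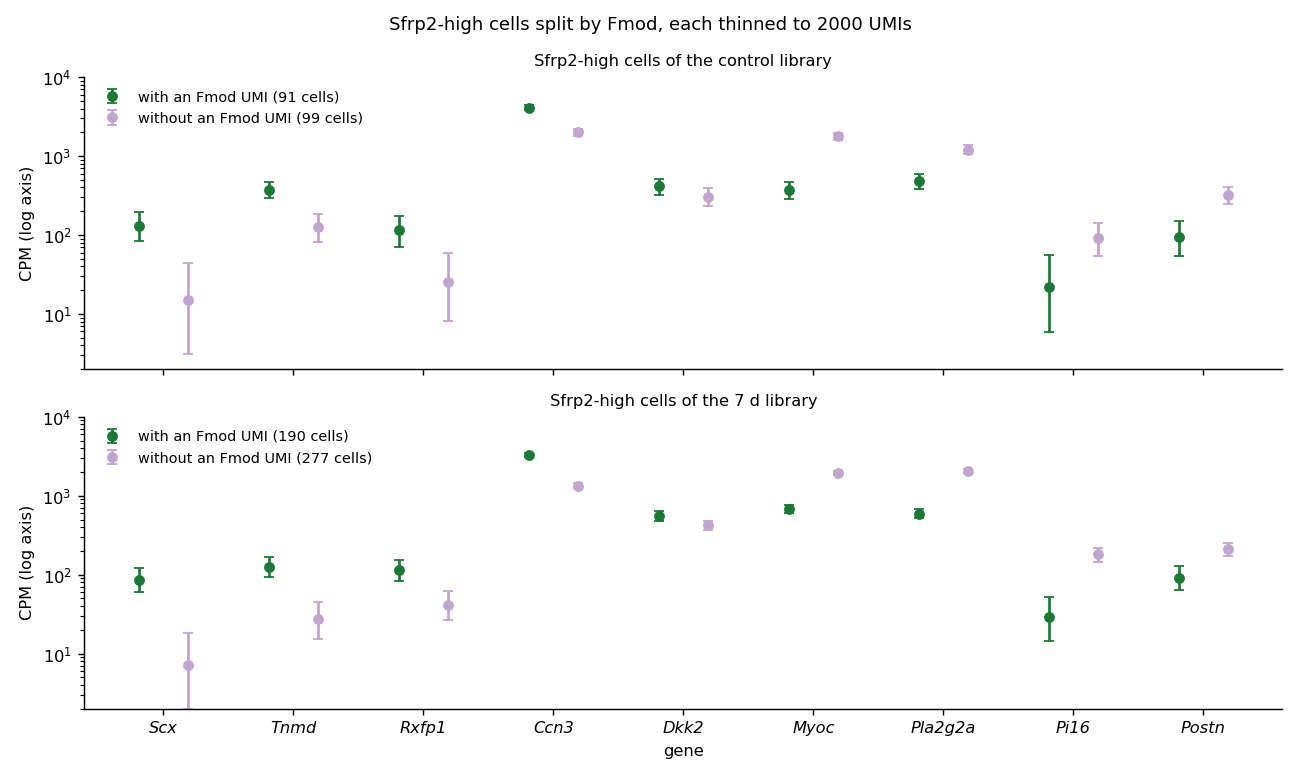
CPM (log axis) of 9 genes in Sfrp2-high cells with and without an Fmod UMI, after thinning to 2000 UMIs, in control (91 and 99 cells) and at 7 d (190 and 277 cells), with 95% Poisson intervals. Scx, Tnmd, Rxfp1 and Ccn3 lay higher with Fmod, and Myoc, Pla2g2a, Pi16 and Postn lay higher without it. The Pi16 intervals overlapped in control.

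The level of Sfrp2 itself also ordered the cells. In control, Sfrp4 had 2850 CPM in the 93 cells with 0.2 to 0.5% Sfrp2, 4328 CPM in the 81 cells with 0.5 to 1% and 7690 CPM in the 28 cells with 1 to 2%, and Fmod had 682, 901 and 1369 CPM. At 7 d the same bins held 243, 197 and 70 cells, with 366, 788 and 849 CPM of Fmod and 2323, 2381 and 2907 CPM of Sfrp4. Dkk2 had 366, 422 and 518 CPM in the control bins, 331, 560.0 and 746 CPM in those at 7 d, 330 and 995 CPM in the first 2 bins at 28 d (39 and 26 cells) and 350.4 and 951 CPM at 60 d (20 and 21 cells). Sfrp4, Fmod and Dkk2 were thus higher in bins of higher Sfrp2 share in these libraries. Mfap5, a microfibril protein, was level over the bins in control, at 1768, 1903 and 1683 CPM, and at 7 d, at 1634, 1709 and 1676 CPM. Fbn1, the gene for fibrillin 1, ran the other way, at 1180, 1040 and 826 CPM in control and 830, 687 and 585.5 CPM at 7 d.

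Sfrp2-high cells of the irradiated libraries were then set against those of control. Of 2415 genes compared at 7 d, 95 were higher (3.93%) and 54 lower (2.24%). Of 2758 at 28 d, 369 were higher (13.4%) and 239 lower (8.67%), and of 2725 at 60 d, 316 were higher (11.6%) and 285 lower (10.5%). The median log2 ratio of all genes was −0.06, 0.05 and 0.08 at 7, 28 and 60 d. Scaling by trimmed mean of M-values (TMM) moved these medians to −0.12, −0.38 and −0.35, and with it the share of higher genes among those counted, which was 57.6%, 25.8% and 20.5% against 63.8%, 60.7% and 52.6% by CPM. Ratios at 28 and 60 d near 0 or near the 2-fold limit therefore depend on the scaling. Among genes that met the limits for naming, set out with the processing below, 29 were higher and 23 lower at all 3 times. These 2 counts do not cover all genes compared, for which no such count is given. The 3 comparisons also share the control cells. Of all genes compared in other fibroblasts, 83 were higher and 31 lower at 7 d, 162 and 158 at 28 d and 123 and 222 at 60 d. All genes named below are the 10 highest or 10 lowest of a time by the same rule, or belong to the gene lists.

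Interferon-induced and MHC class I genes led the higher genes at 7 d. RT1-T24-3, a non-classical class I gene, had 278, 100.2 and 32.8 CPM at 7, 28 and 60 d, against 2.59 CPM in control, with log2 ratios of 6.74 (interval 5.70 to 8.06), 5.27 (4.06 to 6.70) and 3.66 (2.16 to 5.27), the last under the filter. Ifi27l2b, an interferon-induced gene, had 721, 277 and 239 CPM, against 19.6 CPM in control, with log2 ratios of 5.20, 3.82 and 3.60, and 4.07, 2.06 and 2.32 in other fibroblasts. Isg15, a ubiquitin-like protein induced by interferon, had 261, 137 and 59.6 CPM, against 16.7 CPM. All 3 were highest at 7 d and above control at each time in Sfrp2-high cells. RT1-S3 had 580.3, 317.5 and 233 CPM, against 77.0 CPM, and RT1-T24-4 had 202, 96.9 and 44.7 CPM, against 10.7 CPM. Class I genes of the rat are near-identical copies, so that reads may have been split between them. At 28 d a single cell held 25.3% of the Ifi27l2b counts.

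Of the interferon response list, 11 of 17 genes compared were higher at 7 d, 11 of 16 at 28 d and 5 of 12 at 60 d, and none was lower. The median log2 ratios were 1.60, 1.51 and 0.83 in Sfrp2-high cells and 1.51, 0.65 and 0.64 in other fibroblasts, where 19, 14 and 13 genes were compared. Here and for the lists below, each median covers the genes compared in that group at that time. The medians of the 2 groups therefore need not cover the same genes. The list was thus shifted in both groups at 7 d, and at 28 d its median was larger in Sfrp2-high cells. Whether the groups differed there was not tested.

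Targets of the tumour suppressor p53 were higher at 7 d. Cdkn1a, an inhibitor of the cell cycle and a main p53 target, had 1095, 401 and 188 CPM at 7, 28 and 60 d, against 283 CPM in control, with log2 ratios of 1.95 (interval 1.85 to 2.06), 0.50 (0.21 to 0.78) and −0.59 (−0.98 to −0.22). In other fibroblasts Cdkn1a had 1119, 612 and 282 CPM, against 195 CPM in control, with log2 ratios of 2.52, 1.65 and 0.53. After thinning to 1000 UMIs, Cdkn1a had a UMI in 53.6%, 26.1% and 20.4% of Sfrp2-high cells, against 39 of 195 cells in control. Cdkn1a was thus higher at 7 d and lay below the 2-fold limit at 28 and 60 d in Sfrp2-high cells, while other fibroblasts were still above it at 28 d. Mdm2, the ubiquitin ligase that restrains p53, had 591, 204 and 89.5 CPM, against 127 CPM in control. Ephx1, an epoxide hydrolase, had 66.6, 20.1 and 8.95 CPM, against 7.04 CPM. Of the p53 list, 6 of 12 genes were higher at 7 d, 2 of 12 at 28 d and none of 9 at 60 d, when 2 were lower. The median log2 ratios were 0.94, 0.53 and −0.39 in Sfrp2-high cells. In other fibroblasts they were 1.20, 0.90 and 0.48, over 15, 13 and 13 genes compared there, so the 2 groups' medians cover different sets of genes. The 60 d median turned to 0.11 without cells that held markers of other types and the 5% deepest, and to 0.35 with no filter on low values.

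Nr4a1, the gene on which the study centred, had 274, 241 and 206 CPM at 7, 28 and 60 d in Sfrp2-high cells, against 230 CPM in control. Its log2 ratios were 0.25 (interval 0.11 to 0.39), 0.06 (−0.31 to 0.42) and −0.16 (−0.54 to 0.20), all under 2-fold. In other fibroblasts Nr4a1 had 293, 299 and 206 CPM, against 225 CPM in control. After thinning, Nr4a1 had a UMI in 22.9%, 8.70% and 11.1% of Sfrp2-high cells, against 15.9% in control (65.8%, 30.1% and 36.2% against 58.4% before thinning), and in 17.5%, 11.2% and 9.53% of keratin-rich cells, against 14.4%. Of the 3 cells at 14 d, 1 held all 14 Nr4a1 UMIs. No difference of 2-fold or more in Nr4a1 was seen in these cells at 7, 28 or 60 d.

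The remaining genes that led the 7 d comparison were of mixed function. Wfikkn2, a secreted inhibitor of the TGF-beta ligands GDF8 and GDF11, had 95.4, 30.1 and 29.8 CPM at 7, 28 and 60 d, against 2.22 CPM in control, and was seen in 262 of the 521 cells at 7 d. Abcb1a, a drug efflux pump, had 91.0, 36.8 and 17.9 CPM, against 2.22 CPM. Both were near 0 in control and were highest at 7 d. Dbp, a transcription factor of the circadian clock, had 50.2 CPM at 7 d, against 4.44 CPM in control. Tagln, an actin-binding protein of contractile cells, had 60.0 CPM at 7 d, against 6.67 CPM, with 39.1% of its counts in a single cell.

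Genes lower at 7 d included the tendon-associated Tnmd. Its levels were 68.5, 50.1 and 259.5 CPM at 7, 28 and 60 d, against 365 CPM in control, with log2 ratios of −2.41 (interval −2.59 to −2.25), −2.87 (−3.71 to −2.14) and −0.49 (−0.83 to −0.18). Scx had 44.2, 16.7 and 86.5 CPM, against 62.6 CPM, and was lower at 28 d on 5 counts, with a log2 ratio of −1.91 (−3.55 to −0.65). Il1rl1, the receptor of interleukin 33, had 13.5, 0 and 0 CPM, against 99.6 CPM in control, which is at least 9.94-fold lower at 28 d and at least 11.1-fold lower at 60 d against a floor of 3 counts per library. Tnmd and Il1rl1 were thus low at 7 and 28 d, and Tnmd was near the control level at 60 d. Tfpi2, a protease inhibitor, had 70.2, 36.8 and 11.9 CPM, against 205 CPM. Rasd1, Srpx2, Rcan1, an inhibitor of calcineurin, Nedd9, Fxyd5 and Uap1 had log2 ratios of −1.88, −1.82, −1.75, −1.70, −1.62 and −1.42 at 7 d. Without cells that held markers of other types and the 5% deepest, Rasd1, Rcan1 and Nedd9 had −0.42, −0.36 and −0.89 and were no longer 2-fold lower.

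Cryab, the small heat shock protein alpha-B crystallin, was lower at each time. It had 1748, 939 and 146 CPM at 7, 28 and 60 d in Sfrp2-high cells, against 4781 CPM in control, with log2 ratios of −1.45 (interval −1.49 to −1.41), −2.35 (−2.52 to −2.18) and −5.03 (−5.47 to −4.63). In other fibroblasts Cryab had 322, 375 and 69.3 CPM, against 384 CPM in control, with log2 ratios of −0.26, −0.04 and −2.47. Without cells that held markers of other types and the 5% deepest, the ratio at 7 d was −0.95. In other fibroblasts Cryab was past the 2-fold limit at 60 d only. At 28 d a single cell held 26.7% of its counts. Of the heat shock list, none of 10 was higher at any of the 3 times, while 1, 3 and 6 were lower at 7, 28 and 60 d, with median log2 ratios of 0.06, −0.50 and −1.06 in Sfrp2-high cells and 0.29, 0.21 and −0.26 in other fibroblasts. Hspb1, another small heat shock protein, had log2 ratios of −0.11, −0.89 and −1.11.

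Ccl2, the monocyte-attracting chemokine, was abundant in control Sfrp2-high cells and lower at each time. It had 5492, 668 and 564 CPM at 7, 28 and 60 d, against 12284 CPM in control, with log2 ratios of −1.16 (interval −1.18 to −1.14), −4.20 (−4.41 to −4.00) and −4.45 (−4.66 to −4.24). In other fibroblasts Ccl2 had 6022, 2376 and 1877 CPM, against 13136 CPM in control, with log2 ratios of −1.13, −2.47 and −2.81. After thinning to 1000 UMIs, Ccl2 was seen in 67.8%, 24.6% and 5.56% of Sfrp2-high cells, against 85.6% in control, and in 71.1%, 41.1% and 33.2% of other fibroblasts, against 82.7%. The groups were alike in control and at 7 d, and Sfrp2-high cells lay lower at 28 and 60 d. Of the inflammatory fibroblast list, 1 of 17 was higher and 2 lower at 7 d, 5 of 19 higher and 5 lower at 28 d, and 3 of 17 higher and 8 lower at 60 d. Ptx3, the gene for the secreted pattern recognition protein pentraxin 3, had 147.5, 157 and 26.8 CPM, against 282 CPM in control, and was lower at 60 d.

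Hmox1, the gene for the stress-induced enzyme heme oxygenase 1, was lower at the later times. It had 207, 30.1 and 17.9 CPM at 7, 28 and 60 d, against 330 CPM in control, with log2 ratios of −0.68, −3.46 and −4.21, and of 0.03, −0.79 and −3.02 in other fibroblasts. Of the targets of the oxidative stress factor NRF2, 1 of 11 was higher and none lower at 7 d, 1 of 10 higher and 5 lower at 28 d, and 1 of 11 higher and 3 lower at 60 d. Nqo1, a quinone reductase, had 201, 76.9 and 41.8 CPM, against 187 CPM in control, and Txnrd1, a thioredoxin reductase, had 164, 76.9 and 38.8 CPM, against 279 CPM. The 3 enzymes were thus lower at 28 and 60 d, whereas Gstm1, a glutathione transferase of the same list, was higher at all 3 times, with log2 ratios of 1.01, 1.27 and 1.25.

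Complement genes were higher and none was lower. C4b, complement component 4, had 96.6, 411 and 128 CPM at 7, 28 and 60 d in Sfrp2-high cells, against 13.3 CPM in control, with log2 ratios of 2.86 (interval 2.37 to 3.39), 4.95 (4.40 to 5.52) and 3.27 (2.59 to 3.95). In other fibroblasts C4b had 161, 148 and 159 CPM, against 69.8 CPM, with log2 ratios of 1.20, 1.09 and 1.19. Sfrp2-high cells therefore held less C4b than other fibroblasts in control and more of it at 28 d. Serping1, the inhibitor of complement C1, had 712, 1330.0 and 850.0 CPM, against 284 CPM in control, and C1s, a protease of the C1 complex, had 1048, 1056 and 1291 CPM, against 447 CPM. Cfb, complement factor B, had 26.2, 100.2 and 59.6 CPM, against 7.41 CPM in control, with a log2 ratio of 3.76 at 28 d. C3, the central component, had 110 CPM at 28 d from 33 counts in 14 cells, against 0 in control, at least 99.2-fold higher against a floor of 3 counts per library, and 0 at 60 d. Of the list, 4 of 8 were higher at 7 d, 9 of 11 at 28 d and 7 of 9 at 60 d, with median log2 ratios of 0.98, 1.28 and 1.53 in Sfrp2-high cells and 0.46, 0.98 and 0.97 in other fibroblasts.

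**Figure D4:**
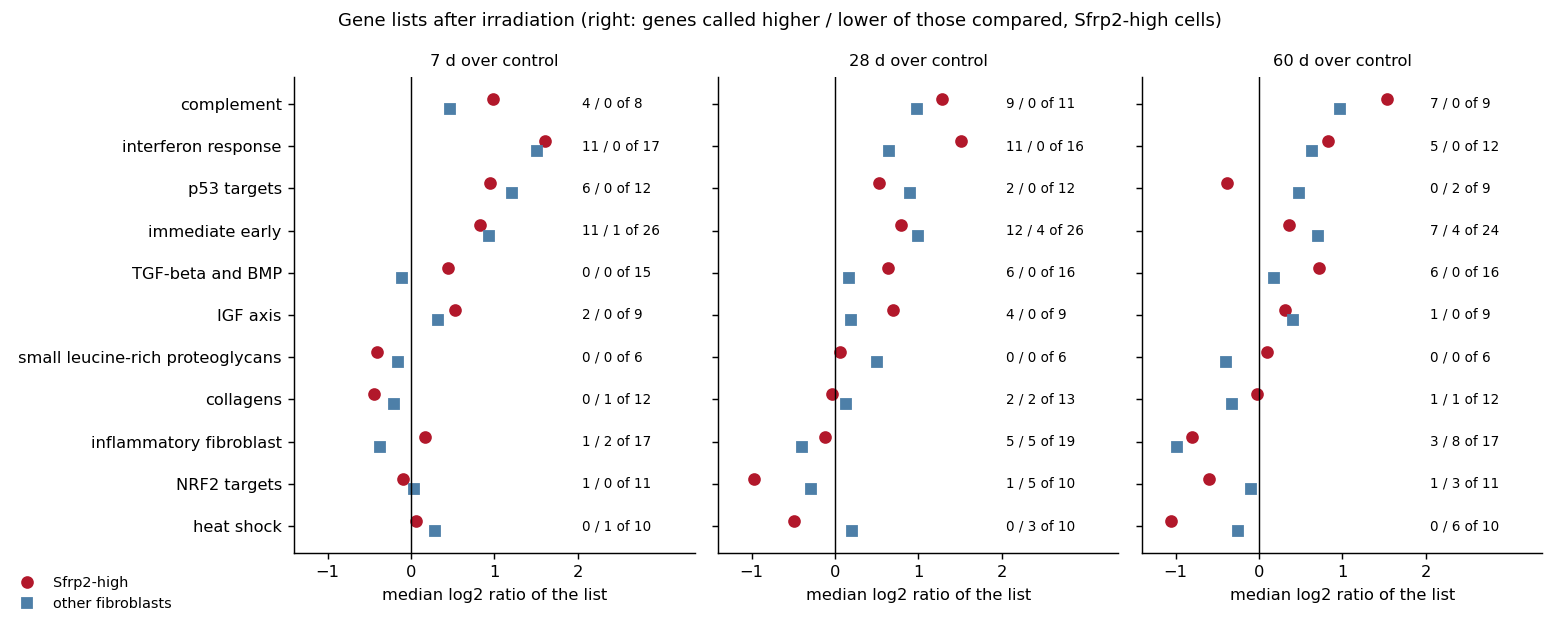
Median log2 ratio over control of 11 gene lists at 7, 28 and 60 d in Sfrp2-high cells (red circles) and other fibroblasts (blue squares), with the genes of each list higher and lower of those compared in Sfrp2-high cells at the right. Each median covers the genes compared in that group at that time. The complement and interferon lists lay above 0 at all 3 times, and the heat shock list fell furthest below 0 at 60 d (−1.06).

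At 28 d the higher genes also included secreted immune factors on few counts. Lcn2, the gene for the antimicrobial protein lipocalin 2, had 0.685, 114 and 0 CPM at 7, 28 and 60 d, against 1.11 CPM in control, where it rested on 3 counts, and the log2 ratio at 28 d was 6.68 (interval 5.01 to 9.02). In other fibroblasts Lcn2 had 318 CPM at 28 d with a log2 ratio of 7.71. Cxcl12, a chemokine for leukocytes and progenitors, had 10.6, 76.9 and 38.8 CPM, against 1.85 CPM, with a log2 ratio of 5.38 at 28 d (3.95 to 7.13). Of the libraries compared, Lcn2 was thus above a few counts at 28 d only, while Cxcl12 was above control at each time. Rtp4, an interferon-induced chaperone, had 44.9, 63.5 and 11.9 CPM, against 2.22 CPM, and Fzd4, a Wnt receptor, had 13.9, 53.5 and 17.9 CPM, against 4.07 CPM. Y_RNA, a name shared by several small RNA genes, had 86.9 CPM at 28 d, against 7.04 CPM in control.

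Several of the lowest genes at 28 d were housekeeping genes that were also low in other cell groups of that library. Gnas, the gene for a G protein alpha subunit, had a log2 ratio of −3.80 at 28 d in Sfrp2-high cells, −2.72 in other fibroblasts and −2.77 in keratin-rich cells. Btf3, a translation-associated factor, had −4.08 in Sfrp2-high cells on 2 counts (interval −7.14 to −2.22), −3.08 in other fibroblasts and −2.94 in keratin-rich cells. Smdt1, a subunit of the mitochondrial calcium uniporter, had −4.18 on 1 count (interval −9.50 to −1.69), −4.54 in other fibroblasts and −3.50 in keratin-rich cells. These 3 were therefore low in all 3 cell groups of the 28 d library. Aprt, a purine salvage enzyme, had −3.44 in Sfrp2-high cells and −3.56 in other fibroblasts, and Snrpg, a spliceosome protein, was at least 9.90-fold lower against a floor of 3 counts. Fars2, a mitochondrial aminoacyl-tRNA synthetase, was different, with −1.08 at 7 d, −4.07 at 28 d on 2 counts (interval −7.12 to −2.20) and −1.06 at 60 d, against −0.35, −0.23 and −0.29 in other fibroblasts. Taf4b, a subunit of the basal transcription machinery, had −0.24, −3.82 and −4.40.

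At 60 d the higher genes included Lmod1, an actin-nucleating protein of muscle cells. It had 52.4, 140.3 and 188 CPM at 7, 28 and 60 d, against 19.3 CPM in control, with log2 ratios of 1.44 (interval 1.02 to 1.90), 2.87 (2.24 to 3.48) and 3.29 (2.73 to 3.84). Fmo2, a flavin monooxygenase, had 94.5, 114 and 236 CPM, against 41.9 CPM, and Fmo1 of the same family had a log2 ratio of 2.85 at 60 d. Lmod1 and Fmo2 were thus higher at each time, with the top level at 60 d. Serpine2, a protease inhibitor, had 218 CPM at 60 d, against 33.7 CPM in control, with 31.5% of the counts in a single cell. Srgap3, a regulator of small GTPases, Prps2, a nucleotide synthesis enzyme, and Ogt, the O-GlcNAc transferase, had log2 ratios of 3.22, 2.90 and 2.63 at 60 d, and of 0.04, 1.39 and 0.09 in other fibroblasts.

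Among the lowest genes at 60 d, Pvr, the poliovirus receptor, had 114, 73.5 and 5.96 CPM at 7, 28 and 60 d, against 207 CPM in control, with a log2 ratio of −5.12 at 60 d on 2 counts (interval −8.17 to −3.26). Adamts4, a protease of proteoglycans, had 118, 70.2 and 8.95 CPM, against 210.0 CPM, with a log2 ratio of −4.55 on 3 counts (−6.83 to −3.00). Rnf19b, Gpat3, an enzyme of lipid synthesis, and Baz1a, a chromatin remodelling subunit, each had 1 count at 60 d, with log2 ratios of −4.67 (−9.98 to −2.18), −4.60 (−9.91 to −2.10) and −4.35 (−9.66 to −1.85). The direction of these 5 ratios lay outside counting error and their size did not rest on many counts. Timp1, a secreted inhibitor of metalloproteinases, was lower at 28 and 60 d, with 1469, 495 and 626 CPM at 7, 28 and 60 d, against 2711 CPM in control.

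Some genes for IGF-binding proteins and for matrix regulators were among those higher after irradiation in Sfrp2-high cells. Of the IGF axis list, 2 of 9 were higher at 7 d, 4 of 9 at 28 d and 1 of 9 at 60 d, and none was lower. Igfbp5 had 1970, 5053 and 1596 CPM at 7, 28 and 60 d, against 1206 CPM in control, with log2 ratios of 0.71, 2.07 (interval 1.98 to 2.16) and 0.40. In other fibroblasts Igfbp5 had 2168, 1126 and 1018 CPM, against 2771 CPM, with log2 ratios of −0.35, −1.30 and −1.44. Igfbp3, the main carrier of IGFs in blood, had 851, 1671 and 471 CPM, against 378 CPM, with log2 ratios of 1.17, 2.14 and 0.32, and at 28 d a single cell held 22.0% of its counts. Igfbp7 had 801, 902 and 1053 CPM, against 339 CPM. Igfbp3 and Igfbp5 thus peaked at 28 d, whereas Igfbp7 was highest at 60 d. Smoc2, a matricellular calcium-binding protein, had 409, 561 and 394 CPM, against 121 CPM in control, with log2 ratios of 1.76, 2.22 and 1.70, and of −0.03, −0.38 and 0.66 in other fibroblasts. Gpc3, the cell surface proteoglycan glypican 3, was higher in both groups, with log2 ratios of 1.39, 1.95 and 1.39 in Sfrp2-high cells and 1.64 and 1.16 in other fibroblasts at 28 and 60 d.

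Collagens and elastic fibre genes were mostly within 2-fold. Col1a1 had log2 ratios of −0.60, −1.03 and −0.65 at 7, 28 and 60 d in Sfrp2-high cells and −0.17, 0.22 and −0.11 in other fibroblasts. Col14a1 had 1177, 2109 and 2830 CPM, against 941 CPM in control, with log2 ratios of 0.32, 1.16 and 1.59, and 0.04, −0.33 and −0.32 in other fibroblasts. Of the collagens, none was higher and 1 lower of 12 at 7 d, 2 higher and 2 lower of 13 at 28 d, and 1 higher and 1 lower of 12 at 60 d. Eln had 1417, 565 and 1420 CPM, against 2045 CPM in control, and Lox had 1984, 1510 and 1649 CPM, against 3458 CPM. Col1a1 and Eln were therefore lowest at 28 d, and Col14a1 was higher at 28 and 60 d. Of the elastic fibre list, 4 of 17 were lower at 28 d, and 3 were higher and 2 lower of 17 at 60 d. Fn1 was higher at 28 and 60 d, with log2 ratios of 1.40 and 1.18, as was Ccn1, a CCN matricellular protein, with 2.04 and 1.96.

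**Figure D5:**
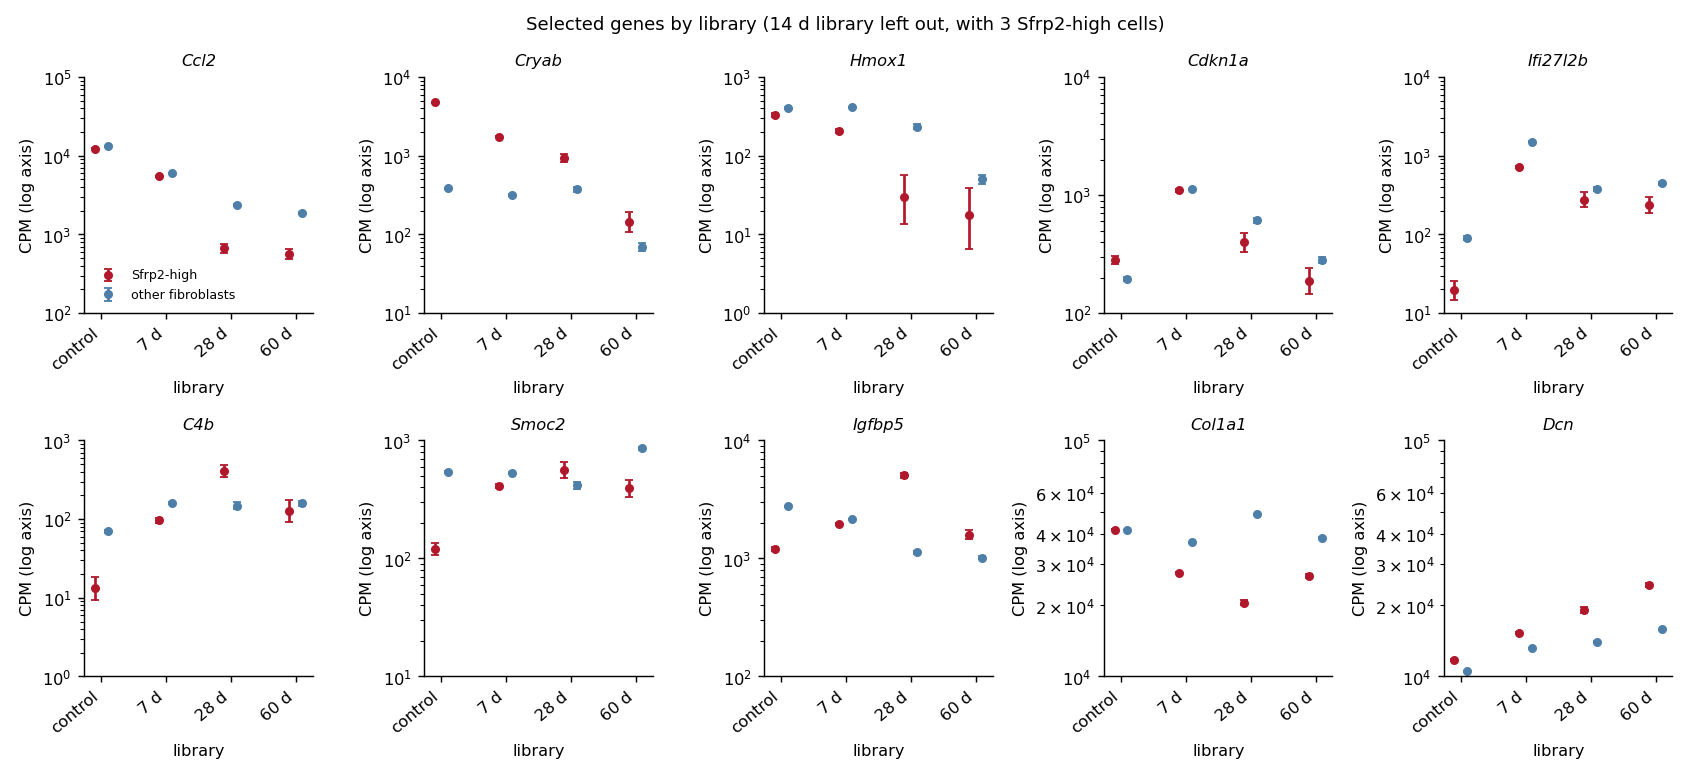
Summed CPM (log axis) of 10 genes in Sfrp2-high cells and other fibroblasts in control, 7, 28 and 60 d libraries, with 95% Poisson intervals. Ccl2, Cryab and Hmox1 were lowest at 60 d in Sfrp2-high cells, Cdkn1a and Ifi27l2b were highest at 7 d, and C4b, Smoc2 and Igfbp5 were highest at 28 d.

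Of the markers that define the cells, Sfrp4 had log2 ratios of −0.72, −1.24 and 0.10 at 7, 28 and 60 d and was counted lower at 28 d. Igfbp6 had 0.24, −0.11 and 0.50, and Fmod had −0.52, −0.10 and 0.92. None of the 3 was counted higher at any time. Of Wnt ligands, receptors and targets, none of 5 differed at 7 d, while 4 of 7 were higher at 28 d and 3 of 6 at 60 d. Fzd1, a Wnt receptor, had 39.9, 120.3 and 89.5 CPM, against 31.1 CPM in control, and Lrp6 had 73.0, 144 and 194 CPM, against 64.5 CPM. Dkk2 had log2 ratios of 0.22, 0.60 and 1.19. Of the TGF-beta and BMP list, none of 15 differed at 7 d, and 6 of 16 were higher at 28 d and at 60 d, with medians of 0.64 and 0.72 by CPM and 0.10 and 0.37 under TMM scaling. Tgfbr3, a co-receptor for TGF-beta, had 370.0, 718 and 611 CPM, against 272 CPM.

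Immediate early genes, which respond within minutes to stimulation and also to enzymatic dissociation of tissue, were more often higher than lower. Fos had 6160, 7265 and 6967 CPM at 7, 28 and 60 d, against 2859 CPM in control, with log2 ratios of 1.11, 1.35 and 1.29, and of 1.24, 1.51 and 1.96 in other fibroblasts and −0.17, −0.98 and −0.18 in keratin-rich cells. Jun had 5889, 8785 and 5559 CPM, against 2169 CPM. Of the list, 11 of 26 were higher and 1 lower at 7 d, 12 of 26 higher and 4 lower at 28 d, and 7 of 24 higher and 4 lower at 60 d, with medians of 0.83, 0.79 and 0.36. The 60 d median was −0.15 under TMM scaling. Nr4a2, a relative of Nr4a1, was lower at all 3 times, with −1.30, −2.06 and −1.73. The part of the dissociation in these levels was not tested.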

How the data were processed

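Counts were deposited by the authors as 1 gene by barcode matrix for each of 5 libraries, which are raw UMI counts, not normalized. The submitters' processing notes name Cell Ranger 5.0.0, STAR, Seurat 3.1.1 and the build Rnor_6.0. The 32623 gene rows carry 30017 symbols, and the 2753 rows that share a symbol were summed. Barcodes with at least 500 UMIs, 300 genes and at most 20% UMIs from 13 mitochondrial genes were kept. No doublet caller was run. Cells with markers of other types and the 5% deepest were left out as an alternative instead. Counts were summed over cells per library and divided by the summed UMIs (CPM). Intervals were exact Poisson (levels), exact conditional binomial (ratios) and Clopper-Pearson (shares). Cells are not replicates, and with 1 library for each group no test was made. Genes with at least 50 CPM in either group were compared, and a gene was counted when it differed by at least 2-fold with an interval without 1.

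The genes named are the 10 highest and 10 lowest of each irradiated library and the 15 highest and 10 lowest against other fibroblasts. They were seen in at least 10% of the cells where higher and reached at least 0.2 of their level in keratin-rich and Ptprc-positive cells. Unnamed loci, mitochondrial, ribosomal and rule genes were left out. Beside them stand the 4 markers, Nr4a1, Cdkn1a and the abundant or counted genes of 29 lists (490 of 516 symbols found) and 13 marker lists (97 of 107 found). Members and lists were chosen with earlier results of these data known. Alternatives were other Sfrp2, depth and collagen limits, thinning, other scalings, filters and folds. Python 3.11.15, numpy 2.4.6, pandas 2.3.3, scipy 1.17.1, matplotlib 3.10.9, R 4.3.3 and edgeR 4.0.16 (TMM factors only) were used, and the scripts were checked on simulated data.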

Additional observations from a re-analysis of the deposited data

Results flagged for a closer look

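Of all genes counted as changed in both Sfrp2-high cells and other fibroblasts, 80 of 80 at 7 d, 172 of 175 at 28 d and 207 of 209 at 60 d went the same way, and the groups share their libraries. Among the named and listed genes counted as changed in both Sfrp2-high cells and other fibroblasts, 4 went opposite ways in the 2 groups at a time, and the difference was not tested for any of them. Igfbp5 at 28 d had a log2 ratio of 2.07 over control in Sfrp2-high cells and −1.30 in other fibroblasts. Tnc at 28 d had −2.83 in Sfrp2-high cells on 18 counts and 2.54 in other fibroblasts. Angptl4, a secreted inhibitor of lipoprotein lipase, had 1.70 at 60 d in Sfrp2-high cells and −2.39 in other fibroblasts, and a single cell held 72.7% of its 33 counts in Sfrp2-high cells. Crabp1 at 60 d had 1.06 in Sfrp2-high cells on 23 counts, 43.5% of them in a single cell, and −1.23 in other fibroblasts.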

How the results depend on the processing

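No paired analysis was possible because each group held 1 library. The share of Sfrp2-high cells among fibroblasts followed the limits. At 0.4% Sfrp2 it was 4.25% in control and 4.89%, 7.68% and 7.47% at 7, 28 and 60 d, and at 0.1% it was 7.67% in control, 9.19% at 7 d and 16.8% at 28 d. Without cells that held markers of other types and without the 5% deepest it was 2.81%, 3.22%, 8.90% and 6.96% in control, 7, 28 and 60 d. At 7 d it was 8.19% with at least 1000 UMIs and at most 10% mitochondrial UMIs, 5.97% with at least 5% collagen and decorin UMIs, and 8.57% after thinning to 2000 UMIs. The number of genes counted followed the filter. With a minimum of 10 CPM, 275 were higher and 170 lower at 7 d, 975 higher at 28 d and 899 higher at 60 d. With no filter these were 518, 357, 1013 and 966. With a 1.5-fold limit, 219 were higher and 168 lower at 7 d, 598 and 475 at 28 d and 589 and 472 at 60 d. Under TMM scaling, 183 were higher and 525 lower at 28 d and 134 and 521 at 60 d, and under median-of-ratios scaling 168 and 438 at 28 d and 131 and 436 at 60 d, since both lower every ratio of a library by 1 factor. With at least 5% collagen and decorin UMIs, 478 genes were higher at 60 d, and 23 instead of 36 were lower than in other fibroblasts in each library. The cause of these was not tested. At 60 d, 3 list medians changed sign: p53 targets (−0.39) had 0.11 without other types' markers and the deepest cells and 0.35 with no filter. Immediate early genes (0.36) had −0.17 with at least 5% collagen and decorin UMIs, −0.15 under TMM, −0.089 under median-of-ratios scaling and −0.043 as a mean over single cells. The IGF axis (0.31) had −0.048 without other types' markers and the deepest cells, −0.038 under TMM and −0.020 as a mean over single cells. Of the values of genes and lists under alternatives, 1570 stayed within their counting interval (genes) or within 1.5-fold (medians), 143 moved further and 9 reversed. A further 208 list medians were under 0.3 and read as no direction, 40 of them with the opposite sign. Depth limits the 28 and 60 d cells, where 3 counts are about 9 to 10 CPM.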
